A study of Mus musculus with 6 samples.

Results

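Transcripts of 7 genes for zymogen granule proteins and minor secreted proteins of the pancreatic acinar cell were measured by RNA sequencing: Gp2, Zg16, Sycn, Cuzd1, Dmbt1, Klk1 and Rnase1. They were taken by gene symbol, as granule membrane, granule matrix and non-enzyme or minor secreted products, from 29721 genes listed in the count table, and all 7 were found there once. The samples were pancreas of Ela-myc mice aged 3 months, 3 animals labelled PARP2 KO and 3 labelled WT. All 6 carried the Ela-myc transgene, in which Myc is driven by the acinar elastase promoter and pancreatic tumours form, so none is a healthy pancreas. The label PARP2 KO stands for knockout of PARP2, an ADP-ribosylating enzyme of the nucleus that responds to DNA breaks. The question was how loss of PARP2 bears on pancreatic tumour development. The labels give neither the deleted part of Parp2 nor the cells in which it was deleted. The extraction protocol speaks of tumour samples while the tissue label is pancreas, and the sampled part of the organ is not given.

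Acinar cells make digestive enzymes and store them in zymogen granules until a meal triggers their release. The granule membrane is lined on its inner face by glycoproteins and lectins that hold the condensed content and take part in packaging and exocytosis. Alongside the enzymes, the granules release small amounts of other proteins, among them tissue kallikrein and pancreatic ribonuclease.

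Library totals were between 28105021 and 32055565 counts. Parp2 itself had 14.4, 12.4 and 13.6 CPM (counts scaled by TMM-adjusted library size) in PARP2 KO replicates 1, 2 and 3, against 40.5, 36.4 and 37.5 CPM in WT replicates 1, 2 and 3. Counts at Myc, where transgene and endogenous reads were not told apart, came to 83.4, 177.1 and 51.4 CPM in PARP2 KO replicates 1, 2 and 3, against 255.8, 266.3 and 391.5 CPM in WT replicates 1, 2 and 3 (log2 fold change -1.55, SE 0.476; adjusted p = 0.0366 by edgeR). The labelled tissue was checked against its main product. A list of 25 digestive enzyme genes took 4.25%, 14.2% and 0.0173% of all counts in PARP2 KO replicates 1, 2 and 3 (0.0169% to 0.0178% as Wilson 95% interval in replicate 3), against 27.3%, 29.1% and 22.5% in WT replicates 1, 2 and 3. PARP2 KO replicate 3 stood apart, with almost no acinar transcripts, and 11 islet cell markers also summed to only 3.44 CPM there, against between 1468 and 3466 CPM in WT libraries. The fold changes and enzyme ratios of the 7 genes are given with and without it. Y-linked transcripts and Xist marked PARP2 KO replicate 1 and WT replicates 1 and 2 as male and the other 3 libraries as female.

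The 7 genes lie on chromosome 7 except Rnase1, which lies on chromosome 14 (GRCm38, positions as in the count table and GENCODE vM21). Rnase1 is at 51144998 to 51146785 on the minus strand, 323.7 kb beyond the end of Parp2, with 16 listed genes between them. On chromosome 7, Sycn is at 28540885 to 28542209 (plus strand), Klk1 at 44225360 to 44229618 (plus), Gp2 at 119442537 to 119459285 (minus) and Zg16 at 127050156 to 127087328 (minus). Dmbt1, at 131032053 to 131121630 (plus), and Cuzd1, at 131308554 to 131322292 (minus), are close to each other. In GENCODE vM21, 5 of the 7 (all but Gp2 and Rnase1) overlap another gene, but the shared exonic bases were 0 in each case.

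Promoter sequence was at hand in the RefSeq table (GRCm38.p6) for 5 of the 7 genes. The 250 bases before the transcription start are shown for Gp2 and Klk1, which held any of the 4 motifs named next, and for Rnase1, the gene nearest to Parp2. Capitals mark TATAAA (the TATA box), CACCTG (an E-box, the kind of site bound by the acinar factor PTF1A) or AAGGTCA (the core of sites of the nuclear receptor NR5A2), on either strand, and TTTCCC (the other element of the PTF1 site) was searched too.
Gp2: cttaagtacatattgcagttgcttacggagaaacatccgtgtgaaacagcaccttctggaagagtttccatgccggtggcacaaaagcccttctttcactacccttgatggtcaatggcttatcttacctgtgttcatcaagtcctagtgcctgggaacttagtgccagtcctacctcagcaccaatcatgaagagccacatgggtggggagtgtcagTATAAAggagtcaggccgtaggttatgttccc
Klk1: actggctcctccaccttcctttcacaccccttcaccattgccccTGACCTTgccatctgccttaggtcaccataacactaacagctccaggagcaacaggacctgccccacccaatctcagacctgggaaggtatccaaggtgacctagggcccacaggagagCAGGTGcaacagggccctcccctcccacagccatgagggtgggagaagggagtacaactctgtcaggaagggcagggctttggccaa
Rnase1: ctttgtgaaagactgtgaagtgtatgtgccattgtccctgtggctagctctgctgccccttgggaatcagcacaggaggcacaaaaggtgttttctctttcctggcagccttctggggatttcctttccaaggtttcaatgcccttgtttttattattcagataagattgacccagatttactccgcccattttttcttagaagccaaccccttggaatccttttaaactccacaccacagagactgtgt
These are chr7:119459273-119459522 (minus strand), chr7:44225110-44225359 (plus strand) and chr14:51146768-51147017 (minus strand). The Gp2 window held TATAAA from 32 to 27 bases before the start, a motif present in 12.4% of 32851 mouse promoter windows of this length. In Klk1, the complement of CACCTG lay 87 to 82 bases and that of AAGGTCA 206 to 200 bases before the start, motifs present in 17.2% and 4.08% of windows. TTTCCC, present in 21.9% of windows, was in 0 of the 5 member windows, and the Sycn, Cuzd1 and Rnase1 windows held none of the 4 motifs. The looser E-box pattern CANNTG, where N is any base, was searched too and is not marked. It was in 3 of the 5 member windows (Cuzd1, Gp2 and Klk1) and in 66.2% of all windows. A match is a string of letters and not a measured site.

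All 7 transcripts had lower means in PARP2 KO than in WT pancreas, where they were abundant, but no gene passed the test. The PARP2 KO libraries differed widely among themselves. Together the 7 transcripts made up 0.269%, 0.900% and 0.00189% of counts in PARP2 KO replicates 1, 2 and 3 (0.00175% to 0.00205% as Wilson 95% interval in replicate 3), against 1.82%, 1.71% and 1.30% in WT replicates 1, 2 and 3. The mean share was 0.390% ± 0.461 in PARP2 KO and 1.61% ± 0.274 in WT (SD, n = 3 each). By the edgeR quasi-likelihood test with Benjamini-Hochberg adjustment over 17652 genes, 0 of 7 were called lower and 0 higher at an adjusted p under 0.05, and 0 had an unadjusted p under 0.05. The DESeq2 Wald test and limma-voom also called 0 of 7. Over all genes tested, 25% were called lower and 28% higher by edgeR, and 28% and 27.9% were called lower by DESeq2 and limma-voom. The median log2 fold change of the 7, PARP2 KO minus WT, was -2.24, beside 0.02 over all genes tested. All 7 passed the filter on low counts.

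Markers of several other cell types, but not of all, moved with genotype in the same libraries. By edgeR 10 of 10 fat cell, 10 of 10 T cell, 10 of 10 B cell and 9 of 10 endothelial markers were called higher in PARP2 KO. Of duct and islet markers 4 of 10 and 4 of 11 were called lower. Macrophage markers were mixed, with 3 of 10 called higher and 2 lower. Their sums overlapped, with between 1382 and 1703 CPM in PARP2 KO and between 1368 and 1418 CPM in WT. Over all genes tested, 28% were called higher and 25% lower. Fat cell markers summed to between 9620 and 12656 CPM in PARP2 KO and between 745 and 1613 CPM in WT, and B cell markers to between 1645 and 2374 CPM in PARP2 KO and between 166.7 and 474 CPM in WT. T cell markers summed to between 445.7 and 1068 CPM in PARP2 KO and between 61.8 and 174.3 CPM in WT, and endothelial markers to between 1025 and 1140 CPM in PARP2 KO and between 445.3 and 491.2 CPM in WT. Among PARP2 KO libraries, replicate 3 had the highest T cell, B cell and endothelial sums and replicate 1 the highest fat cell sum. The lowest fat cell, T cell and endothelial sums were in replicate 2 and the lowest B cell sum in replicate 1. The part of these cells in the lower values of the 7 genes was not tested.

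**Figure D1:**
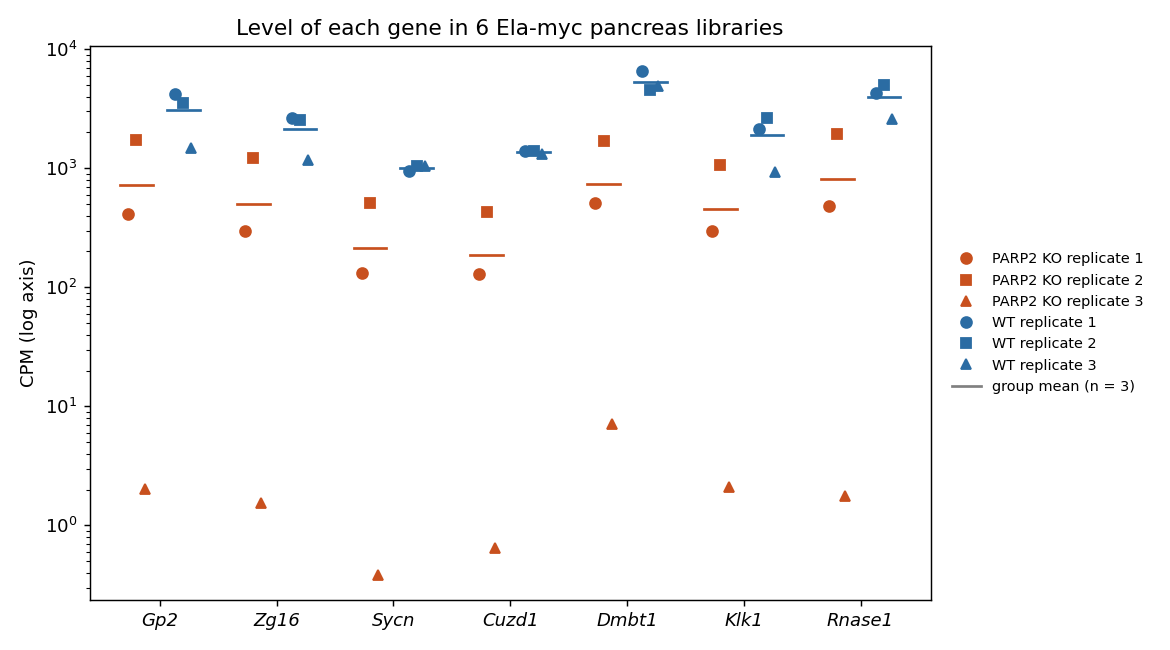
CPM on a log axis of each gene in 3 PARP2 KO (orange) and 3 WT (blue) libraries, with symbols for replicates and bars for group means. PARP2 KO replicate 3 lies between 0.385 and 7.12 CPM for every gene, and PARP2 KO replicate 2 lies nearest to WT.

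Among the granule membrane proteins, Gp2, a lipid-anchored glycoprotein that is the main membrane protein of the zymogen granule, had 413, 1736 and 2.03 CPM in PARP2 KO replicates 1, 2 and 3. In WT replicates 1, 2 and 3 it had 4216, 3523 and 1494 CPM. The groups overlapped, since PARP2 KO replicate 2 was above WT replicate 3. The mean was 716.9 ± 905.8 CPM in PARP2 KO and 3077 ± 1415 CPM in WT (SD, n = 3 each; difference on the log2 scale -2.10, SE 1.74; adjusted p = 0.338 by edgeR).

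Dmbt1, which encodes a large mucin-like glycoprotein with scavenger receptor repeats that is known as muclin in mouse pancreas, had 511.9, 1684 and 7.12 CPM in PARP2 KO replicates 1, 2 and 3. WT replicates 1, 2 and 3 had 6498, 4534 and 4915 CPM. The groups did not overlap, and the lowest WT library was well above the highest PARP2 KO library. The log2 fold change was -2.86 (SE 1.53; adjusted p = 0.161 by edgeR). Without PARP2 KO replicate 3 it was -2.25 and Dmbt1 was called lower (edgeR adjusted p = 0.0281). It was also called lower by limma-voom with sample weights (adjusted p = 0.0488), a test that called 31.2% of all genes lower.

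Cuzd1, which encodes a granule membrane protein that shares a zona pellucida domain with Gp2 and Dmbt1 proteins, had 129.9, 431.2 and 0.642 CPM in PARP2 KO replicates 1, 2 and 3. Its WT replicates 1, 2 and 3 had 1395, 1402 and 1318 CPM, a narrow range. Its groups did not overlap either. The log2 fold change was -2.87 (SE 1.68; adjusted p = 0.191 by edgeR). Without PARP2 KO replicate 3 it was -2.27 and Cuzd1 was called lower (edgeR adjusted p = 0.0232). These 2 neighbours on chromosome 7, Cuzd1 and Dmbt1, were the only members called lower without that library, where 20.4% of all genes were.

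Of the proteins held at the granule's inner face, Zg16, a lectin also known from intestinal goblet cells, had 296.8, 1217 and 1.54 CPM in PARP2 KO replicates 1, 2 and 3. WT replicates 1, 2 and 3 stood at 2647, 2525 and 1182 CPM. As for Gp2, PARP2 KO replicate 2 was above WT replicate 3, so that the groups overlapped (log2 fold change -2.07, SE 1.71; adjusted p = 0.336 by edgeR). The 7 goblet cell markers summed to between 0.874 and 7.16 CPM in PARP2 KO libraries and between 11.8 and 18.4 CPM in WT libraries, far below Zg16 in all but PARP2 KO replicate 3. Of these 7 markers 3 were tested, each lower in PARP2 KO with no overlap, an order shown by 33.7% of all genes tested. Only Agr2, named after its values were seen, was called lower (log2 fold change -2.63, SE 0.613; adjusted p = 0.0137 by edgeR), where 25% of all genes tested were. The defining mucin gene Muc2 had at most 0.324 CPM in PARP2 KO libraries and at most 0.313 CPM in WT libraries, and the part of goblet cells in the Zg16 values was not tested.

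Sycn, which encodes syncollin, a small granule protein that aids efficient exocytosis in mice, had 130.6, 507.5 and 0.385 CPM in PARP2 KO replicates 1, 2 and 3. Values in WT replicates 1, 2 and 3 were 950.5, 1036 and 1038 CPM. The groups did not overlap (log2 fold change -2.24, SE 1.73; adjusted p = 0.307 by edgeR). The lowest value, in PARP2 KO replicate 3, rested on 15 counts.

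Of the minor secreted enzymes, Rnase1, the pancreatic ribonuclease that digests dietary RNA, had 486, 1958 and 1.77 CPM in PARP2 KO replicates 1, 2 and 3. In WT replicates 1, 2 and 3 it had 4251, 4993 and 2606 CPM. The groups did not overlap (log2 fold change -2.28, SE 1.76; adjusted p = 0.308 by edgeR). Klk1, tissue kallikrein, which frees kinins from kininogens, had 295, 1061 and 2.11 CPM in PARP2 KO replicates 1, 2 and 3. In WT replicates 1, 2 and 3 it had 2118, 2664 and 936 CPM. Here PARP2 KO replicate 2 was again above WT replicate 3, the only female WT library and the lowest WT library for Gp2, Zg16, Klk1 and Rnase1 (Klk1 log2 fold change -2.07, SE 1.65; adjusted p = 0.319 by edgeR).

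Sycn, Cuzd1, Dmbt1 and Rnase1 were thus below WT in all 3 PARP2 KO libraries with no overlap, 4 of 7 genes, where 33.7% of all genes tested showed that order. The two-sided exact permutation p on log2(CPM + 0.5) was 0.10 for these 4, the smallest that 3 against 3 allows, and 0.20 for Gp2, Zg16 and Klk1. In a piece of tissue, fewer acinar cells and less of these RNAs per acinar cell cannot be told apart.

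Levels of different genes were compared per length of exonic sequence. Rnase1 was the highest in every library but PARP2 KO replicate 3, where Klk1 was, with 489.98, 1974 and 1.79 CPM per kb in PARP2 KO replicates 1, 2 and 3 and with 4285, 5033 and 2627 CPM per kb in WT replicates 1, 2 and 3. In PARP2 KO replicate 2, Klk1, Zg16, Sycn and Gp2 followed at 985.4, 968.3, 912.7 and 868.6 CPM per kb, and Dmbt1 and Cuzd1 were lowest at 238.6 and 191.2 CPM per kb. Sycn, Klk1, Zg16 and Gp2 followed Rnase1 in WT at 1813 ± 89.5, 1770 ± 820.1, 1685 ± 646.7 and 1540 ± 708 CPM per kb, and their WT ranges overlapped. Dmbt1 and Cuzd1 were lowest in WT, at 753.2 ± 147.5 and 608 ± 20.8 CPM per kb (SD, n = 3 each). The WT range of Rnase1 lay above those of all others, and that of Dmbt1 overlapped those of Gp2 and Klk1 but lay above that of Cuzd1. In PARP2 KO replicate 3 no gene was above 1.96 CPM per kb.

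The 3 PARP2 KO libraries differed far more from each other than the genes differed within a library. On the log2(CPM + 0.5) scale, relative to the WT mean of each gene, the median of the 7 was -2.94, -0.96 and -10.12 in PARP2 KO replicates 1, 2 and 3. The same median over the 25 digestive enzyme genes was -2.98, -1.08 and -10.77. In PARP2 KO replicate 2 the members ran between -1.67 for Cuzd1 and -0.69 for Gp2, and in replicate 1 between -3.40 for Cuzd1 and -2.56 for Klk1. In replicate 3 they ran between -10.71 for Rnase1 and -9.38 for Klk1, but there the added 0.5 CPM is as large as the lowest values (0.385 CPM for Sycn), so the order on this scale depends on it. Cuzd1 and Dmbt1 were the lowest pair in replicates 1 and 2. Folds were also taken on plain CPM against the arithmetic WT mean, without logs and without the added 0.5 CPM, so their order can differ. On that measure PARP2 KO replicate 2 was 1.74-fold lower for Zg16 and 3.18-fold lower for Cuzd1. Replicate 1 was 6.46-fold lower for Klk1 and 10.6-fold lower for Cuzd1, and replicate 3 was 747-fold lower for Dmbt1 and 2615-fold lower for Sycn. Without replicate 3 the edgeR log2 fold changes were -1.49 for Gp2, -1.46 for Zg16, -1.64 for Sycn, -1.47 for Klk1 and -1.67 for Rnase1, with adjusted p between 0.0662 and 0.154. Without replicate 2 they ran between -4.40 for Cuzd1 and -3.69 for Klk1 over the 7 genes, with adjusted p between 0.118 and 0.199.

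**Figure D2:**
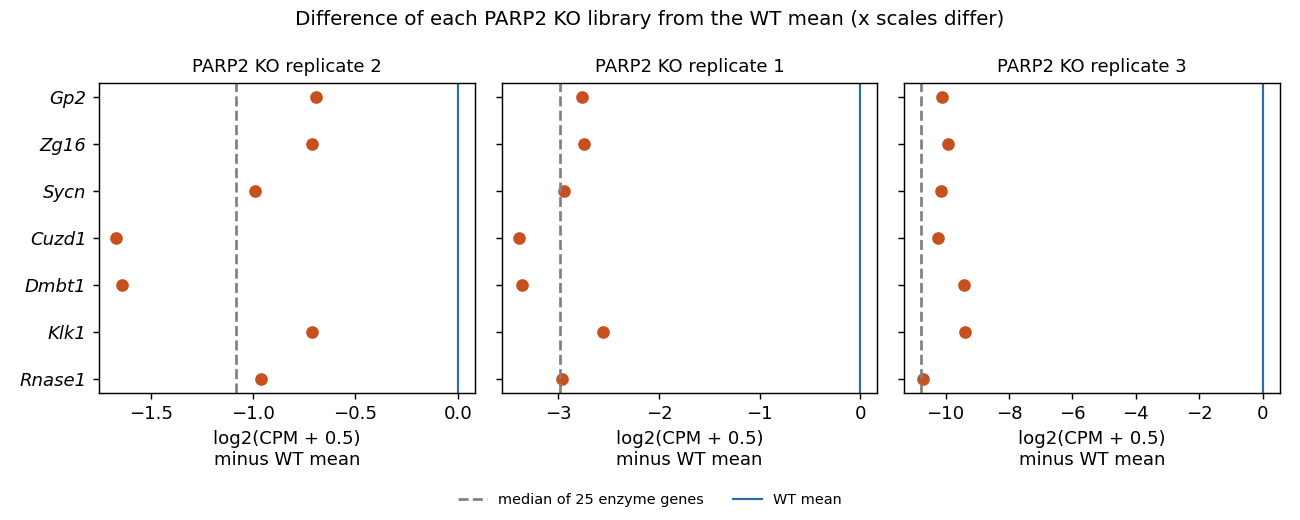
Difference of each gene from its WT mean, in log2(CPM + 0.5), in PARP2 KO replicates 2, 1 and 3, with a dashed line for the median of 25 digestive enzyme genes and scales that differ between panels. The enzyme median lies at -1.08, -2.98 and -10.77, with Cuzd1 and Dmbt1 to its left in replicates 2 and 1. Positions in replicate 3 depend on the added 0.5 CPM, as values there go down to 0.385 CPM.

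Set against the digestive enzymes of the same library, the summed granule genes differed little between 5 of the 6 libraries. Their summed counts were 6.34, 6.35 and 10.9 per 100 enzyme counts in PARP2 KO replicates 1, 2 and 3, against 6.66, 5.87 and 5.78 in WT replicates 1, 2 and 3. This ratio needs no scaling between libraries. Each gene's log2 ratio was compared between genotypes with a two-sided exact permutation test, adjusted over the 7 genes, and no gene passed, with adjusted p between 0.35 and 1. A design of 3 against 3 cannot give a raw p below 0.10.

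Rnase1 had the narrowest range of ratios over the 6 libraries on a log scale, with 13.6, 14.5 and 12.4 counts per 1000 enzyme counts in PARP2 KO replicates 1, 2 and 3 against 12.8, 14.2 and 11.2 in WT replicates 1, 2 and 3 (log2 difference 0.09, exact permutation p = 0.60). Sycn had 3.66, 3.75 and 2.70 in PARP2 KO against 2.87, 2.94 and 4.45 in WT, with overlapping groups (log2 difference -0.01, exact permutation p = 1). Cuzd1 had 3.64, 3.18 and 4.50 in PARP2 KO against 4.21, 3.98 and 5.65 in WT, also overlapping (log2 difference -0.29, exact permutation p = 0.30). With PARP2 KO replicate 3 left out, these log2 differences were 0.15 for Rnase1, 0.15 for Sycn and -0.42 for Cuzd1, whose groups then did not overlap, and without WT replicate 3 that of Cuzd1 was -0.13.

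Klk1 and Zg16 had ratios above WT in all 3 PARP2 KO libraries, with no overlap. Klk1 had 8.26, 7.84 and 14.8 counts per 1000 enzyme counts in PARP2 KO against 6.39, 7.57 and 4.01 in WT (log2 difference 0.77, exact permutation p = 0.10, adjusted p = 0.35). Zg16 had 8.31, 8.99 and 10.8 in PARP2 KO against 7.99, 7.17 and 5.06 in WT (log2 difference 0.49, exact permutation p = 0.10, adjusted p = 0.35). Both gaps were narrow, and with Cpa1 counts as the denominator the groups of both overlapped. Gp2 had 11.6, 12.8 and 14.2 in PARP2 KO against 12.7, 10.01 and 6.40 in WT, where WT replicate 3 was low as for Klk1 and Zg16 (log2 difference 0.46, exact permutation p = 0.20). When PARP2 KO replicate 3 was left out, the log2 differences were 0.48 for Klk1, 0.38 for Zg16 and 0.38 for Gp2, and without WT replicate 3 they were 0.50, 0.30 and 0.18 in the same order (exact permutation p between 0.20 and 0.40).

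Dmbt1 had 14.3, 12.4 and 49.9 counts per 1000 enzyme counts in PARP2 KO against 19.6, 12.9 and 21.1 in WT. The value of 49.9, in the library almost without enzymes, rested on 277 Dmbt1 counts and 5556 enzyme counts and was the highest ratio of any member. The log2 difference was 0.25 with that library and -0.39 without it (exact permutation p = 0.90 and 0.30). Duct cells also make this protein. The 10 duct markers summed to between 31.9 and 623.2 CPM in PARP2 KO and between 1332 and 2098 CPM in WT, with 31.9 CPM in PARP2 KO replicate 3, and their part in the Dmbt1 value was not tested.

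**Figure D3:**
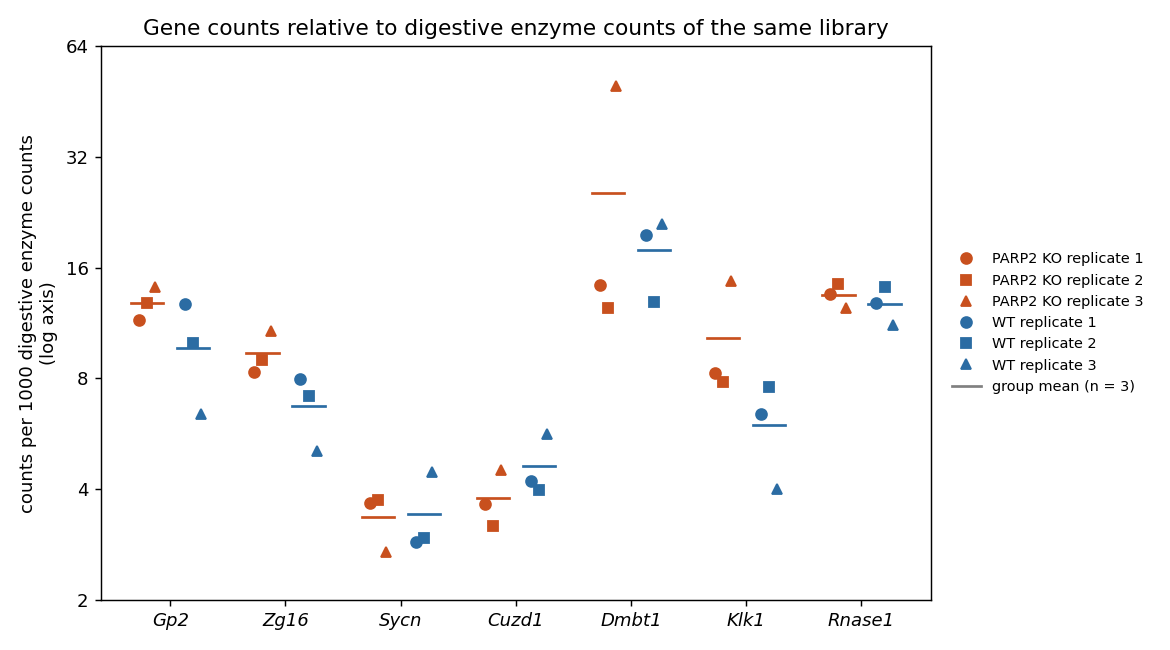
Counts of each gene per 1000 digestive enzyme counts of the same library, on a log axis, in PARP2 KO (orange) and WT (blue) libraries, with bars for group means. Rnase1 lies between 11.2 and 14.5 in all 6 libraries, whereas Dmbt1 reaches 49.9 in PARP2 KO replicate 3.

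Likeness of profiles was measured as the root mean square difference of centred log2(CPM + 0.5) values over the 6 libraries. All profiles share the low values in PARP2 KO replicate 3, so this is a description only. Among the 21 pairs of members the median was 0.47, the closest pair was Gp2 and Zg16 (0.12) and the most distant was Dmbt1 and Rnase1 (0.69). Among 15072 other genes with a mean of at least 1 CPM, the nearest to Rnase1 were Cel, the bile salt lipase gene (0.12), and the elastase gene Cela2a (0.14). Those nearest to Gp2 were the lipase-related gene Pnliprp2 (0.16) and Cela2a (0.30), and those nearest to Zg16 were Pnliprp2 (0.22) and the trypsinogen gene Try10 (0.30). Pdia2, a pancreatic protein-folding enzyme gene, was nearest to both Sycn (0.17) and Cuzd1 (0.15), followed by Cela1 (0.20) for Sycn and the phospholipase gene Pla2g1b (0.25) for Cuzd1. Dmbt1 was nearest not to enzymes but to Rbpjl, a subunit of the acinar PTF1 complex (0.20), and Cckar, the cholecystokinin receptor gene (0.22). Klk1 was nearest to the trefoil factor gene Tff2 (0.28) and the serpin gene Serpini2 (0.30). Ranked by Pearson correlation, 6 of these 14 neighbours were again among the nearest 2.

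The 25 digestive enzyme genes, among them proteases, amylases and lipases, also had lower means in PARP2 KO without passing the test. By edgeR 0 of 25 were called lower and 0 higher, with 0 at an unadjusted p under 0.05, while DESeq2 called 2 lower and limma-voom 3. Over all genes tested, these tests called 25%, 28% and 27.9% lower. Without PARP2 KO replicate 3, where 20.4% of all genes were called lower, edgeR called 2 enzyme genes lower. Without replicate 2, where 5032 genes were called lower in all, it called 1. The groups did not overlap for 21 of the 25, all lower, where 33.7% of all genes tested showed that order. The median log2 fold change of the 25 was -2.37. The smallest p belonged to Amy2a5 (pancreatic amylase), Ctrc (chymotrypsin C) and Pla2g1b, with log2 fold changes of -2.78, -2.29 and -2.77 and edgeR adjusted p of 0.103, 0.133 and 0.205.

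Of 10 acinar transcription factor genes 3 were called lower and 0 higher by edgeR (median log2 fold change -2.45), a share near the 25% of all genes called lower. The count depended on the test: DESeq2 called 6 lower and limma-voom 8, where 28% and 27.9% of all genes were. Xbp1, which drives the secretory pathway, averaged 247.6 ± 60.3 CPM in PARP2 KO and 468.7 ± 57.3 CPM in WT (SD, n = 3 each; difference on the log2 scale -0.92, SE 0.196; adjusted p = 0.0103 by edgeR). Nr5a2, which acts on enzyme genes together with the PTF1 complex, averaged 20.1 ± 16.1 CPM in PARP2 KO and 86.7 ± 12.0 CPM in WT, and Gata4 13.5 ± 13.6 CPM in PARP2 KO and 89.9 ± 13.1 CPM in WT (edgeR adjusted p = 0.0291 and 0.0377). The calls of Nr5a2 and Gata4 ended without PARP2 KO replicate 1 or any WT library, with adjusted p up to 0.0957 and 0.116, and also with no count filter or with sex as a term. Without PARP2 KO replicate 3, where 20.4% of all genes were called lower, 7 of the 10 were. Without replicate 2, where 5032 genes were called lower in all, 7 of the 10 were too. Without replicate 1 or any WT library only Xbp1 was.

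Of 22 genes of the granule membrane and of the machinery that docks and fuses granules, 7 were called lower and 5 higher by edgeR (median log2 fold change -0.25), shares near the 25% and 28% of all genes tested. With library totals as the only scaling, 5 were lower and 8 higher. Without PARP2 KO replicate 1, 2 were lower and 5 higher, and without WT replicate 2, 4 were lower. Sytl4, which encodes granuphilin, a protein that binds Rab27 on granules, averaged 5.01 ± 1.54 CPM in PARP2 KO and 12.7 ± 1.52 CPM in WT (log2 fold change -1.34, SE 0.248; adjusted p = 0.00659 by edgeR). The islet cell markers summed to between 3.44 and 618.6 CPM in PARP2 KO and between 1468 and 3466 CPM in WT. Their part in the Sytl4 result was not tested. The SNARE genes Snap29 and Stx2 were higher, Snap29 at 73.5 ± 2.77 CPM in PARP2 KO and 46.4 ± 3.42 CPM in WT, and Stx2 at 36.1 ± 2.58 CPM in PARP2 KO and 20.3 ± 3.27 CPM in WT (SD, n = 3 each; edgeR adjusted p = 0.00283 and 0.00483). Both are expressed in many cell types. The part in the SNARE result of the fat, endothelial and immune cell markers given above was not tested.

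Klk1 belongs to a cluster of closely similar kallikrein genes on chromosome 7, and its reads may be shared with them. Of 20 relatives listed, 10 were tested, and 1 was called higher and 0 lower by edgeR (median log2 fold change -1.50, with 1 of the 10 at an unadjusted p under 0.05). Over all genes tested, 28% were called higher and 25% lower. DESeq2 and limma-voom also called 1 of the relatives higher and 0 lower, whereas edgeR called 2 higher without WT replicate 3. Without PARP2 KO replicate 2 it called 2 higher and 1 lower, beside 5125 and 5032 of all genes. The highest of the Klk1b genes in WT, Klk1b5, singled out after its values were seen, averaged 9.94 ± 11.7 CPM in PARP2 KO and 27.5 ± 10.7 CPM in WT, far below Klk1. The one called gene was Klk8, better known from brain and skin, with 11.2, 5.27 and 11.8 CPM in PARP2 KO against 2.03, 0.989 and 1.52 CPM in WT (log2 fold change 2.63, SE 0.417; adjusted p = 0.00434 by edgeR). The other genes of smallest p, Klk1b24 and Klk10, had log2 fold changes of -1.73 and 1.30 (edgeR adjusted p = 0.179 and 0.182). Of 9 salivary gland markers only Muc19 was in the table, at no more than 0.103 CPM in PARP2 KO libraries and no more than 0.0391 CPM in WT libraries.

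Rnase1 likewise has relatives nearby on chromosome 14. Of 16 RNase A family genes on the list 11 were in the table and 5 were tested, of which 2 were called higher and 1 lower by edgeR. Over all genes tested, 28% were called higher and 25% lower. Without PARP2 KO replicate 2, where 5032 genes were called lower in all, 3 of the 5 were. Ang, the angiogenin gene, averaged 6.67 ± 8.26 CPM in PARP2 KO and 58.6 ± 6.45 CPM in WT (SD, n = 3 each; difference on the log2 scale -3.15, SE 1.002; adjusted p = 0.0421 by edgeR), a call that ended without PARP2 KO replicate 1 or any WT library, with adjusted p up to 0.12, and likewise when counts were scaled by library totals alone, left unfiltered or fitted with sex as a term. Rnase6, an antimicrobial ribonuclease of leukocytes, averaged 30.7 ± 5.25 CPM in PARP2 KO and 10.3 ± 3.70 CPM in WT (log2 fold change 1.58, SE 0.271; adjusted p = 0.00548 by edgeR). The eosinophil-associated Rnase2a averaged 6.08 ± 3.22 CPM in PARP2 KO and 0.279 ± 0.345 CPM in WT (log2 fold change 4.41, SE 0.993; adjusted p = 0.0133 by edgeR), and that call ended without WT replicate 3 (adjusted p = 0.0516).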

How the data were processed

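RNA from pancreas of 6 Ela-myc mice was sequenced after stranded mRNA library preparation, per the labels' protocols. The authors deposited whole-number read counts per gene, which had not been normalised, and log2 values, both with Ensembl identifiers. The deposited log2 values equal log2 of counts divided by DESeq2 size factors plus 1, to within 5.2e-14. The genome was GRCm38 (mm10), and STAR 2.5.3a, DESeq2 1.28.1 and FastQC 0.11.5 are listed with no role, per the submitters' processing notes. Which program counted the reads, with which strand setting and annotation, is not given in the sources used here, so reads shared between similar genes are uncertain.

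The main test was edgeR's quasi-likelihood test (glmQLFTest, version 4.0.16, R 4.3.3) with robust dispersion, TMM scaling, the default expression filter (17652 genes kept) and genotype alone in the design. Adjusted p-values are Benjamini-Hochberg over all genes tested, with 0.05 as the threshold. SE is the absolute log2 fold change over the square root of F. CPM are counts scaled by TMM-adjusted library size, and logs used a pseudocount of 0.5 CPM. Exonic lengths came from GENCODE vM21. Intervals cover counting error only, as no molecular identifiers were used. Libraries of the same genotype differed by more than sampling noise in every pair (chi-square per degree of freedom 29.1 to 461). Replicates are separate animals per the series design, numbered in accession order.

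The members and gene lists were chosen with earlier results of these data known. Genes named by rule are all members, the 3 genes of smallest p in each pathway or family list, and the 2 genes of mean CPM at least 1 nearest to each member in profile. Outside that rule, Parp2, Myc and Cpa1 were named, and Agr2, Muc2, Muc19 and Klk1b5 from the marker and family lists. No value for Myc with a library left out is given here. Alternatives were other scalings, filters and thresholds, DESeq2 1.42.0, limma 3.58.1 (voom, sample weights, deposited log2 values), sex as a term, other denominators and leaving out each library. The procedure was also run on simulated counts. They held no library with almost no acinar transcripts, so that run cannot judge the tests on these data.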

Additional observations from a re-analysis of the deposited data

How the results depend on the processing

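All 7 granule genes had a log2 fold change below 0 under all 16 alternatives of test, scaling, filter, sex term and left-out library. The count of members called lower was 0 in all of these except limma-voom with sample weights, with 1, and without PARP2 KO replicate 3, with 2, so that leaving out 1 library gave 0 to 2. Fold sizes moved with the tool and the libraries: that of Gp2 was -2.10 by edgeR, -4.62 by limma-voom, -1.49 without PARP2 KO replicate 3 and -3.89 without PARP2 KO replicate 2.

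Over all genes, 4415 were called lower and 4938 higher. With library totals as the only scaling, which moved the median log2 fold change to 0.42, these were 2160 and 7475, and at an adjusted p under 0.01 they were 2103 and 2766. Leaving out 1 library gave 2543 (without PARP2 KO replicate 1) to 5032 lower.

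Of the pathway and family genes, with 25, 22, 10, 10 and 5 tested per list, 11 were called lower, where 25% of all genes tested were. The count was 7 with no count filter, 19 by DESeq2, 22 by limma-voom and 26 with sample weights. It was 18 by limma on the deposited log2 values, 7 with sex as a term, 2 at an adjusted p under 0.01 and 17 under 0.1. Over all genes, 28%, 27.9% and 31.2% were called lower by DESeq2, limma-voom and with sample weights, and 20.4% without PARP2 KO replicate 3. Leaving out 1 library gave 3 (without PARP2 KO replicate 1) to 20 (without PARP2 KO replicate 2), with 18 without PARP2 KO replicate 3 and 7 and 5 without WT replicates 1 and 2. The cause of these moves was not tested.

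The ratio to digestive enzymes did not overlap between genotypes for 2 members, and for 0 with Cpa1 or with the median of 19 enzyme genes as the denominator. Of the 14 nearest genes 6 remained by Pearson correlation. No paired analysis was possible because the labels give each animal its own number, shared by no animal of the other genotype.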
